A study of Mus musculus with 18 samples.

Results

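ERVL elements are long terminal repeat (LTR) retrotransposons, and the 108 repeat subfamilies described here are those of the ERVL class outside the MERVL and MT2 names, out of 1365 subfamilies measured. They were chosen by the class that the tables give each subfamily: it had to begin with LTR/ERVL without being LTR/ERVL-MaLR, and names beginning MERVL or MT2 were left out. Of the 108, 94 are LTRs and 14 are internal parts by name, 5 carry a class marked as uncertain, and MER54A, LTR41B and HERV16-int are all among them. The study measured poly(A) RNA from 18 mouse libraries in 6 groups of 3, to ask how inhibition of the chaperone HSP90 changes RNA from repeats. Embryonic stem cells (ESCs) of the 129S1/CASTEiJ background, grown in 2i medium, were left untreated or given 100 nM NVP-AUY922, an HSP90 inhibitor. Bone-marrow-derived macrophages of the BALBC/C57BL6 background, made with M-CSF, were left untreated or given 500 nM. Neuronal progenitor cells (NPCs) of the 129S1/CASTEiJ background, grown with EGF and FGF, were left untreated or given 50 nM. Treatment lasted 24 h in each case, so dose differs between the cell types, and strain sets the macrophages apart. The labels do not say whether the 3 libraries of a group are separate cultures or animals. A p-value here therefore speaks only for the spread among the sequenced libraries, and that spread could be technical.

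ERVL elements take their name from the leucine tRNA thought to prime their reverse transcription, and they belong to the class III endogenous retroviruses, which are distantly related to foamy viruses. An intact element has an internal part with gag and pol genes between a pair of LTRs. The LTR holds the promoter, and recombination between the pair leaves a solitary LTR, the most common remnant in the genome. MERVL with its MT2 LTRs is the branch that still has coding copies in the mouse and is transcribed in the early embryo. Most other ERVL subfamilies, such as those named LTR16, LTR33 or MLT2, inserted in early mammals and survive as short, mutated fragments. Names that begin RMER mark rodent elements.

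Each cell type has 1 authors' deposited table, a comparison of its treated and untreated libraries that holds no value per library. A row sums all genomic copies of a subfamily. The base mean is the average read count after scaling for depth; it is not divided by length or copy number. The SE, the standard error of a log2 fold change, follows each ± sign. Whether a positive value means more RNA in treated or in untreated cells is not stated, so values are given by side, positive or negative. That the tables share 1 orientation is not stated either. In such bulk RNA, fewer cells of a type and less RNA per cell cannot be told apart. The tables hold no genes, so the labelled cell types could not be set against marker genes. Related subfamilies can share reads, and transcripts of genes that contain a fragment can add to a row. An adjusted p, by the DESeq2 Wald test of the authors' deposited table, was given for 98 members in ESCs, 105 in macrophages and 104 in NPCs. A member is said to pass where it was under 0.05. LTR108c_Mam, MER76-int and the other members without one had base means of at most 6.6 in the table concerned.

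Of the summed base means, the 108 subfamilies held 0.812% (ESCs), 1.08% (macrophages) and 1.16% (NPCs). RMER15, a rodent LTR, made up 30.1%, 21.1% and 22.3% of the members' sum in that order. Its base means were 9388, 4530 and 5389 in the authors' deposited tables. The rodent LTR RMER10A came second in each table (3902, 1795 and 2022). RMER10B (2002, 986 and 1136), RLTR28, MER21C and RMER15-int were the other members among the first 5 in at least 1 table. The first 5 held 59.2% of the members' sum in ESCs, 49.0% in macrophages and 47.4% for NPCs. Most members had few reads: their median base means, in that order, were 63.3, 46.5 and 49.6, against 126, 88.0 and 104 over all rows above 0.

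The 3 LTRs RMER15, MER21C and RMER10A, all well read in every table, lay close to 0. In the authors' deposited tables RMER15 lay at 0.05 ± 0.06 (ESCs), 0.02 ± 0.06 (macrophages) and 0.08 ± 0.15 (NPCs). Its 95% intervals ran from -0.08 to 0.18, from -0.10 to 0.14 and from -0.22 to 0.38. MER21C lay at -0.01 ± 0.09, 0.03 ± 0.07 and -0.05 ± 0.18, and RMER10A at -0.15 ± 0.07, -0.03 ± 0.06 and 0.00 ± 0.12, in the same order. None of these 9 values passed, with adjusted p between 0.121 and 0.994 in the authors' deposited tables. RMER10A in ESCs had a 95% interval that left out 0, from -0.29 to -0.01 (unadjusted DESeq2 p 0.0348). Other well-read members lay further out. In the authors' deposited table for NPCs, MLT2F lay at 0.52 ± 0.31 (base mean 1087) and RMER15-int at -0.35 ± 0.19 (base mean 1445), with wide errors and adjusted p of 0.370 and 0.285. Among members with base means over 1000 RLTR28 was the one that passed, in ESCs and macrophages, and it is described with the comparison of cell types.

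**Figure D1:**
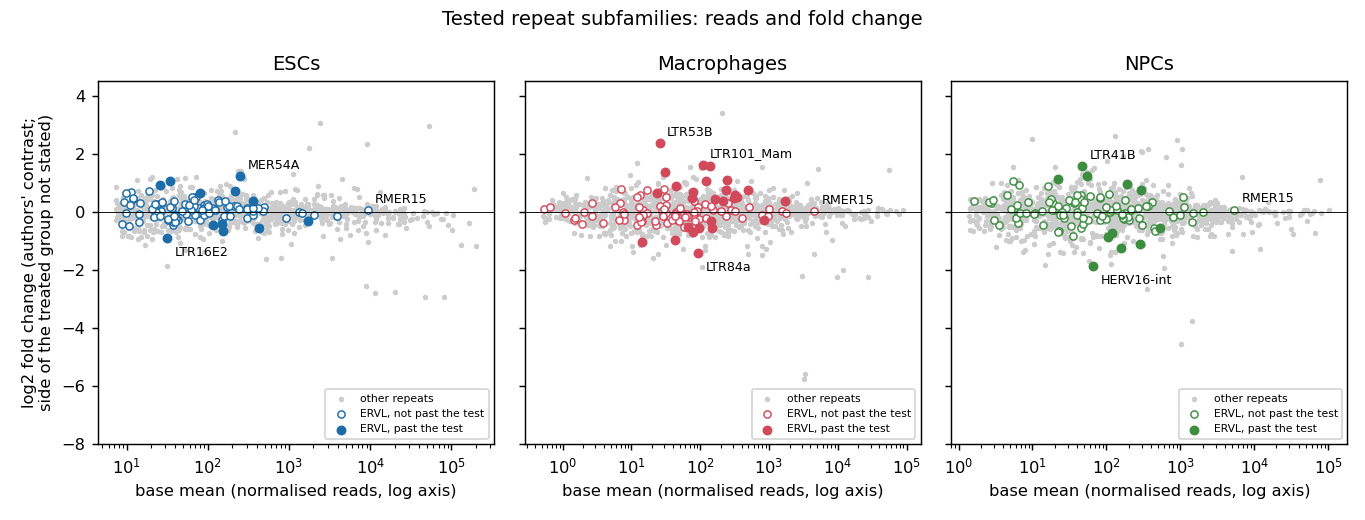
Each point is a repeat subfamily with an adjusted p, with its base mean in normalised reads (log axis) and its log2 fold change in the authors' contrast, 1 panel per cell type. Coloured points are the ERVL subfamilies, filled where the adjusted p is under 0.05, and grey points are all other repeats. RMER15, at a base mean of 9388 in ESCs, sits near 0, and all ERVL subfamilies that pass, other than RLTR28 and RMER15-int, lie at base means between 14.4 and 540.

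In ESCs the ERVL subfamily that stood furthest from 0 was MER54A, an LTR, on the positive side. In the authors' deposited table it lay at 1.23 ± 0.13 (2.35-fold, base mean 252), and its adjusted p was 1.08e-18. Its closest relative by name, MER54B, lay at -0.36 ± 0.25 at a base mean of 39.9 and did not pass (adjusted p 0.361). LTR16D (1.07 ± 0.27, base mean 33.8), LTR86A1 (0.92 ± 0.29, base mean 26.0), MLT2C2 (0.72 ± 0.14, base mean 216), LTR16A1 (0.64 ± 0.20) and MLT2B1 (0.37 ± 0.12) were the other positive members there. Its negative members were LTR16E2 (-0.89 ± 0.28, base mean 31.6), LTR82A (-0.68 ± 0.17), LTR50 (-0.57 ± 0.11, base mean 432), MLT2B5 (-0.46 ± 0.17), LTR53 (-0.42 ± 0.16) and RLTR28 (-0.31 ± 0.08). The adjusted p of these 11 lay between 1.58e-06 for MLT2C2 and 0.0379 for LTR53 in the authors' deposited table. All 12 members that passed were LTRs.

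That makes 6 positive and 6 negative of 98 tested members in ESCs, or 12.2%, against 22.2% of all 1132 tested rows (10.2% positive and 12% negative). The members' median log2 fold change was 0.06, beside 0.0019 over all tested rows. Beyond 1 on the log2 scale lay MER54A and LTR16D alone, 2.04% of tested members against 3.18% of all tested rows. Members had fewer reads and wider errors than other rows: at base means of at least 50 their median SE was 0.16, against 0.11 over all such rows. Among rows with base means of at least 50, 9 of 60 members passed (15%), against 26% of all rows. What part these reads and errors had in the lower share was not tested.

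Macrophages gave the most calls, 27, and the largest value of any member. In the authors' deposited table LTR53B lay at 2.37 ± 0.30 (5.18-fold) and its adjusted p was 2.30e-13, but its base mean was only 25.7. LTR101_Mam, whose name marks it as spread across mammals, lay at 1.63 ± 0.22 (3.09-fold, base mean 108), and LTR41B at 1.57 ± 0.15 (2.97-fold, base mean 137). The authors' deposited table puts the LTRs MER70A and MER74B at 1.38 ± 0.28 and 1.10 ± 0.11, and the internal part MER68-int at 1.05 ± 0.21. MER74B, at a base mean of 241.5, and LTR41B had the smallest adjusted p of any member, 7.84e-23 and 9.51e-23. Nearer 0 on the positive side were LTR55 (0.89 ± 0.20), ERV3-16A3_I-int (0.76 ± 0.13), MER77B (0.76 ± 0.14), MER76 (0.68 ± 0.16), LTR86C (0.65 ± 0.26) and MLT2B1 (0.59 ± 0.11). LTR16B (0.52 ± 0.11), MLT2B4 (0.48 ± 0.09), LTR87 (0.46 ± 0.17), LTR16C (0.42 ± 0.13), MER68B (0.36 ± 0.11) and RLTR28 complete that side in the authors' deposited table.

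Among negative members in macrophages, the authors' deposited table has LTR84a furthest out at -1.41 ± 0.20 (2.65-fold, base mean 93.6, adjusted p 8.38e-11). Its relative by name, LTR84b, lay at 0.36 ± 0.20 and did not pass (adjusted p 0.187). LTR86B2 lay at -1.05 ± 0.30 with a base mean of 14.4, and LTR108a_Mam at -0.99 ± 0.25 with 43.2, in the authors' deposited table. RLTR35B_MM (-0.71 ± 0.24), LTR50 (-0.56 ± 0.17), LTR41 (-0.56 ± 0.14), LTR16 (-0.51 ± 0.20), MER77 (-0.33 ± 0.12) and RMER15-int (-0.28 ± 0.09) followed. Of these, LTR16 was nearest the threshold: its adjusted p was 0.0452 as deposited, and 0.0517 once all values were centred on the median over tested rows.

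In macrophages 18 members were positive and 9 negative of 105 tested, 25.7% in all, a share near the 25.8% of all 1255 tested rows. By side, 17.1% of members were positive and 8.57% negative, against 13.3% and 12.5% of all rows. The members' median was -0.02 and that of all tested rows -0.01, so that the tested members as a whole did not lie on the positive side: 51 of 105 had a value above 0. With base means of at least 50, 21 of 52 members passed (40.4%), against 36.3% of all rows. Beyond 1 lay 8 members, 6 positive and 2 negative, which is 7.62% of tested members beside 4.22% of all rows.

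In NPCs the largest value was that of an internal part, HERV16-int, on the negative side. In the authors' deposited table it lay at -1.87 ± 0.26 (3.66-fold, base mean 66.0), and its adjusted p was 6.30e-11. LTR16E1 lay at -1.26 ± 0.31 and LTR50 at -1.11 ± 0.24, with adjusted p of 8.51e-04 and 1.16e-04. The internal parts ERVL-int (-0.87 ± 0.24, base mean 104) and ERVL-B4-int (-0.56 ± 0.16, base mean 540) and the LTR LTR40b (-0.74 ± 0.23) were the other negative members there. Among positive members LTR41B lay at 1.56 ± 0.30 (2.95-fold, base mean 47.5), with an adjusted p of 6.32e-06. LTR40A1 (1.23 ± 0.31), LTR89B (1.12 ± 0.36, base mean 22.4), LTR33A (0.95 ± 0.21) and MER74A (0.75 ± 0.17, base mean 298) were the others in the authors' deposited table.

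In NPCs 5 members were positive and 6 negative of 104 tested, 10.6% in all, beside 11.8% of 1249 tested rows (4.96% positive and 6.81% negative). The members' median was -0.01 and that of all tested rows 0.0009. At base means of at least 50, 9 of 53 members passed (17%), against 15.3% of all rows, and 6 of 104 tested members lay beyond 1 (5.77%), against 4.88% of all rows. The median SE of members with such base means was 0.22 in NPCs, against 0.16 in ESCs and 0.15 in macrophages. The smallest called value was 0.56 in size in NPCs, against 0.31 in ESCs and 0.28 in macrophages. Of the 93 NPC members that did not pass, 61 had a 95% interval inside ±1 on the log2 scale and 14 inside ±0.5. The same counts were 79 and 33 of 86 in ESCs, and 67 and 20 of 78 in macrophages. Rows with almost no reads are among them: LTR86A2, at a base mean of 0.54 in macrophages, had an interval from -0.37 to 0.56. In a row with so few reads a narrow interval does not show that the change is small. The smallest called values in ESCs and macrophages belonged to RLTR28 (SE 0.08) and RMER15-int (SE 0.09). Both errors were below the median SE given above for members in those cell types. What part the errors had in the number of calls was not tested.

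**Figure D2:**
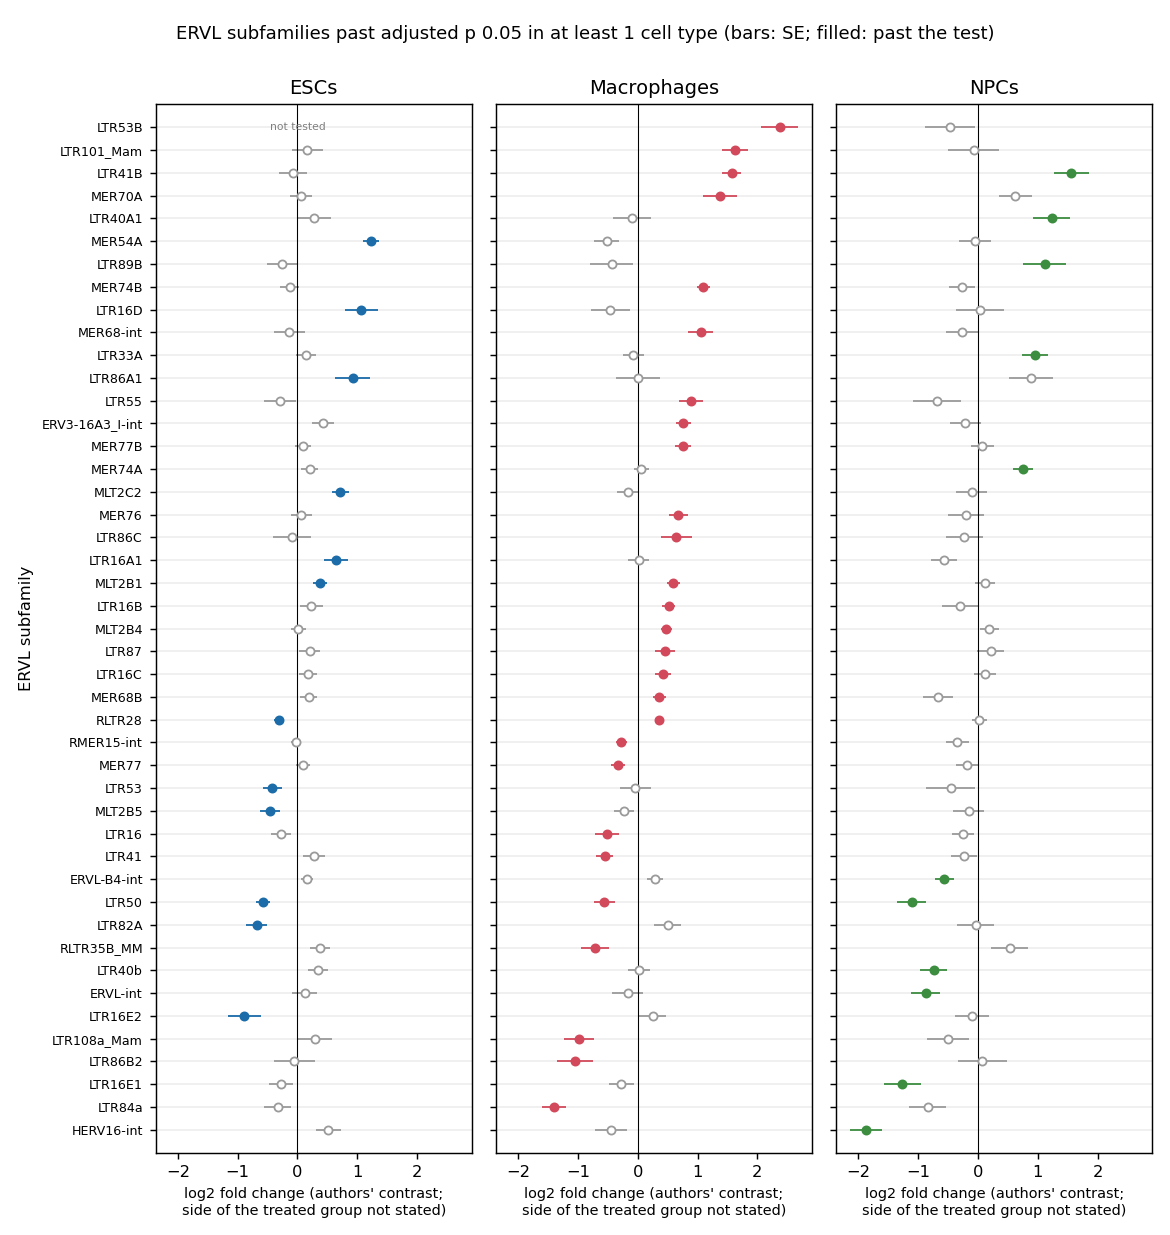
The log2 fold change (x axis, with SE bars) of the 45 ERVL subfamilies with an adjusted p under 0.05 in at least 1 cell type, in ESCs, macrophages and NPCs. Filled points pass the test in that cell type. LTR50 is filled on the negative side in all 3 panels, and 41 of the 45 are filled in 1 panel alone.

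The internal parts, which hold what is left of gag and pol, passed in macrophages and NPCs but not in ESCs. None of 12 tested in ESCs passed the DESeq2 test of the authors' deposited table, with values from -0.45 to 0.52, and 2 had an unadjusted p under 0.05. In macrophages 2 were positive and 1 negative of 13 (23.1%), and in NPCs 0 were positive and 3 negative of 12 (25%), in the authors' deposited tables. Over all rows the shares were 22.2% in ESCs, 25.8% in macrophages and, for NPCs, 11.8%, and the NPC share of the ERVL LTRs was 8.7%. With 12 or 13 internal parts per table these shares are descriptions. The median of the internal parts in NPCs was -0.19, beside 0.03 for the 92 tested LTRs. HERV16-int was at 0.52 ± 0.21 in ESCs, with an adjusted p of 0.0545, and at -0.44 ± 0.27 in macrophages, so that its largest value belonged to NPCs. ERVL-E-int lay at -0.22 ± 0.13, 0.08 ± 0.11 and -0.17 ± 0.25 (ESCs, macrophages, NPCs) and passed in none of the authors' deposited tables.

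Internal parts and the LTRs of the same name stem did not lie together in several cases. The 13 LTRs named LTR16, set beside HERV16-int, had a median of -0.05 over 12 tested in NPCs, with LTR16E1 the one that passed. In macrophages ERV3-16A3_I-int lay at 0.76 ± 0.13 with a base mean of 499.6, while ERV3-16A3_LTR, with 44.3, lay at -0.02 ± 0.21. MER68-int lay at 1.05 ± 0.21 there, MER68 at 0.17 ± 0.08 (adjusted p 0.121) and MER68B at 0.36 ± 0.11 in the authors' deposited table. RMER15-int lay at -0.28 ± 0.09 and its LTR RMER15 at 0.02 ± 0.06 in macrophages. LTR53-int, LTR53 and LTR53B lay there at -0.35 ± 0.34, -0.04 ± 0.26 and 2.37 ± 0.30. These pairs come from the same libraries, and the difference within a pair was not tested.

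Grouped by name stem, the LTRs gave calls on both sides in several groups. The shares of all rows that passed, against which the group counts are to be read, were 22.2%, 25.8% and 11.8% in ESCs, macrophages and NPCs. Of the LTR16 group 2 were positive and 1 negative of 12 tested in ESCs, 2 and 1 of 13 in macrophages, and 0 and 1 of 12 in NPCs, and no member of the group passed in more than 1 table. Of the LTRs from LTR79 to LTR89B, 1 was positive and 1 negative of 15 tested in ESCs, 2 and 2 of 16 in macrophages, and 1 and 0 of 16 in NPCs. From LTR50 to LTR55 there were 0 positive and 2 negative of 4 in ESCs, 2 and 1 of 5 in macrophages (60%), and 0 and 1 of 5 in NPCs. The MLT2 group, ERVL LTRs of early mammals, had 2 positive and 1 negative of 10 in ESCs, 2 and 0 in macrophages, and 0 and 0 in NPCs. The group of MER68, MER70, MER73, MER74, MER76, MER77 and MER88 had 0 calls of 13 tested in ESCs, 5 positive and 1 negative of 14 in macrophages (42.9%), and 1 positive and 0 negative of 14 in NPCs. Its positive members in macrophages were MER70A, MER74B, MER77B, MER76 and MER68B, and its negative one MER77. Of the 7 LTR40 and LTR41 members, 0 passed in ESCs, LTR41B and LTR41 passed on opposite sides in macrophages, and LTR41B, LTR40A1 and LTR40b passed in NPCs (42.9%). LTR33 gave 1 call of 5, LTR33A in NPCs, and the MER21 and RMER LTRs gave none in any table. Where a group named in this paragraph had no call in a table, at most 1 of its members had an unadjusted p under 0.05 there, by the DESeq2 test. Counts of this size are descriptions of the groups, with no test of a group as a whole.

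**Figure D3:**
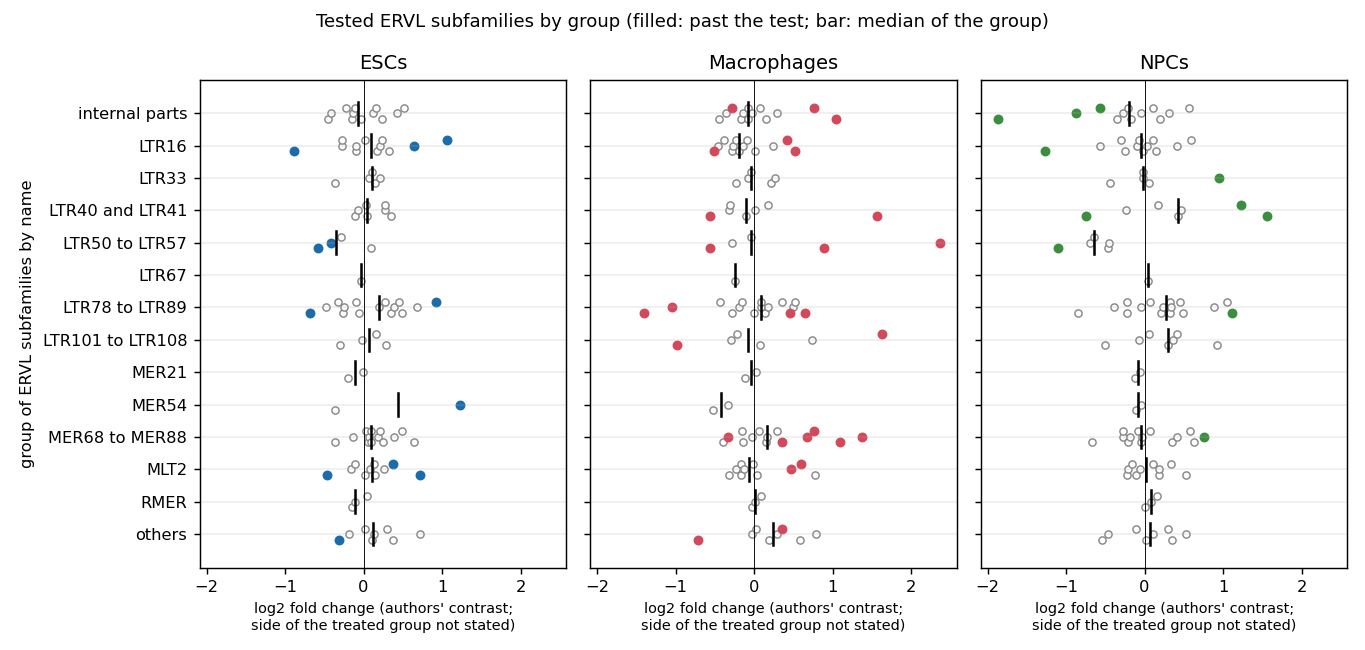
Each point is a tested ERVL subfamily, placed by its log2 fold change (x axis) and its group (y axis), with 1 panel per cell type. All internal parts stand in the top row, and the other rows hold LTRs alone. Filled points pass an adjusted p of 0.05 and the black bar is the group's median. The rows of RMER and MER21 LTRs hold no filled point.

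Members that passed mostly did so in 1 cell type. Of 108, 45 passed somewhere and 63 nowhere, beside 538 of all 1365 rows that passed somewhere. The 63 include members without an adjusted p in 1 or more tables, since 98 were tested in all 3. Of the 45, 41 passed in 1 table, 3 in 2 and 1 in all 3. The 4 in more than 1 table are 8.89% of the 45, beside 151 of 538 (28.1%) over all rows, and the 1 in all 3 is 2.22%, beside 6.13%. This difference was not tested. The one in all 3 was LTR50. The authors' deposited tables put it at -0.57 ± 0.11 (ESCs), -0.56 ± 0.17 (macrophages) and -1.11 ± 0.24 (NPCs), with base means of 432, 150 and 286. LTR41B lay on the positive side in macrophages and NPCs, at nearly the same value of 1.57 and 1.56, and at -0.07 ± 0.24 in ESCs. MLT2B1 was positive in ESCs (0.37 ± 0.12) and macrophages (0.59 ± 0.11) and lay at 0.11 ± 0.17 in NPCs. RLTR28, a rodent LTR with base means of 1730 in ESCs and 1702 in macrophages, passed on opposite sides: it lay at -0.31 ± 0.08 in ESCs and at 0.36 ± 0.07 in macrophages, and the authors' deposited tables give these adjusted p-values of 0.00165 and 1.59e-05. In NPCs it lay at 0.02 ± 0.13.

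As shares of each list, the 3 members called in both ESCs and macrophages were 25% of 12 and 11.1% of 27. The 1 shared by ESCs and NPCs was 8.33% of 12 and 9.09% of 11, and the 2 shared by macrophages and NPCs were 7.41% of 27 and 18.2% of 11. Over all rows the same shares were 42.2% and 32.7%, 20.7% and 35.4%, and 18.2% and 40.1%. A rank correlation of the values of 2 cell types was low across members and across all rows. Spearman's rho was 0.03 over 98 members for ESCs and macrophages, 0.13 over 98 for ESCs and NPCs, and 0.06 over 102 for macrophages and NPCs. Over all rows tested in both tables it was 0.14, 0.10 and 0.20 in that order. These are descriptions across subfamilies, which can share reads. No library enters 2 tables.

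The difference between cell types was tested for each subfamily as the difference of its log2 fold changes over the combined SE, against the normal distribution (two-sided), and adjusted by Benjamini-Hochberg over all rows tested in both tables. This takes the tables as oriented alike. ESCs and macrophages differed in 21 of 98 members (21.4%), beside 23.7% of all rows. ESCs and NPCs differed in 11 of 98 (11.2%), beside 12.6%, and macrophages and NPCs in 16 of 102 (15.7%), beside 12.4%. HERV16-int differed in all 3 pairs, with 0.52 in ESCs, -0.44 in macrophages and -1.87 in NPCs, though by itself it passed in NPCs alone. MER54A differed in both pairs that hold ESCs, by 1.75 ± 0.25 from macrophages (adjusted p 1.52e-10) and by 1.28 ± 0.30 from NPCs (adjusted p 3.74e-04). It lay at -0.52 ± 0.22 in macrophages and at -0.04 ± 0.27 in NPCs in the authors' deposited tables, with base means of 58.2 and 74.5. LTR41B differed in the same pairs, by -1.64 ± 0.28 and -1.63 ± 0.38 (ESC value minus the other), with adjusted p of 1.10e-07 and 3.36e-04. MER74B differed in both pairs that hold macrophages, by -1.23 ± 0.19 for ESCs minus macrophages (adjusted p 1.50e-09) and by 1.37 ± 0.24 for macrophages minus NPCs (adjusted p 6.89e-07). If 1 table of a pair were oriented the other way, 21 of the 48 differences would still pass, MER54A, LTR41B and MER74B among them in the pairs just named, and HERV16-int in the pairs with NPCs. RLTR28 would not, since its values are of like size and opposite sign.

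**Figure D4:**
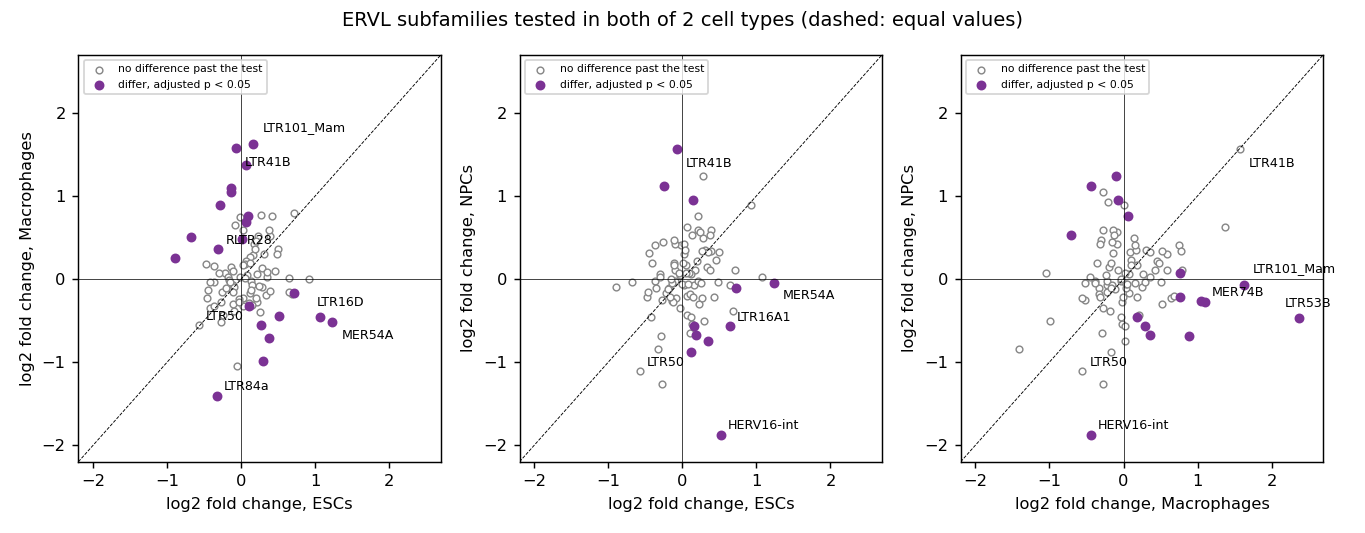
Log2 fold changes of the ERVL subfamilies tested in both of 2 cell types, plotted against each other in 1 panel per pair, with equal values on the dashed line. Filled points differ with an adjusted p under 0.05. LTR41B lies on the dashed line in the panel of macrophages and NPCs, and HERV16-int lies far from it in both panels with NPCs.

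Beside the MERVL branch, the other ERVL subfamilies had a lower median in ESCs, 0.06 against 0.53 for the 8 MERVL and MT2 rows. In ESCs those 8 rows ranged from -0.05 to 2.95, and MER54A (1.23) and LTR16D (1.07) lay above their median. MERVL-int lay at 2.95 ± 0.08 and MT2_Mm at 2.34 ± 0.07 there in the authors' deposited table, and 6 of the 8 MERVL and MT2 rows passed, all positive, beside 6 positive and 6 negative of the 98 tested members. In the other cell types MERVL-int lay at 0.49 ± 0.09 (macrophages) and 0.34 ± 0.20 (NPCs) in the authors' deposited tables, and MT2_Mm at 0.14 ± 0.05 and 0.16 ± 0.23. The 8 MERVL and MT2 rows ranged there from -0.34 to 0.49 and from -0.76 to 0.34, with 3 positive and 2 negative calls in macrophages and 0 and 1 in NPCs. Their medians there were -0.02 and -0.01, and those of the other ERVL subfamilies were also -0.02 and -0.01. Single rows among the other ERVL subfamilies lay further from 0, up to 2.37 for LTR53B in macrophages and -1.87 for HERV16-int in NPCs. These are extremes of 105 and 104 tested members, set beside 8 rows, and their base means were 25.7 and 66.0. MERVL-int had base means of 5003 and 15510 there. The extremes therefore do not compare the size of the response. The members' call shares of 12.2%, 25.7% and 10.6% in ESCs, macrophages and NPCs stood beside 14.3%, 32.0% and 8.08% for the MaLR elements, non-autonomous relatives of ERVL. For ERVK, a class with active mouse elements, they were 42.3%, 36.6% and 18.3%, and for ERV1, another LTR class, 30.6%, 31.9% and 14.5%. These shares are set side by side as counts, and the difference between classes was not tested.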

How the data were processed

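Poly(A) RNA was sequenced in 18 libraries, per the labels' protocols with a stranded, paired-end kit. Per the submitters' processing notes, the tools were TopHat2 2.0.13, Bowtie2, Trim Galore, deepTools, featureCounts and DESeq2, and the build was mm10; the tools' roles, the treatment of multi-mapping reads and the use of strand are not given in the sources used here. Per the file headers, each table holds a DESeq2 result by the authors over 1365 subfamilies: the base mean (a signal, counts scaled by size factors), the log2 fold change and SE, and the p-value and adjusted p-value. The Wald statistic is a score that the authors computed, per the file headers, and it equalled the log2 fold change over its SE in all 1132, 1255 and 1249 tested rows. Rows with base means under 1 had log2 fold changes of at most 0.25, 0.42 and 0.37 in size in the deposited tables, so that values with few reads may have been shrunken towards 0. In ESCs MER76-int, at a base mean of 0.34, had an SE of 0.14, against 0.34 for LTR16D1 at 9.41. Fold sizes, intervals and differences of rows with few reads are to be read with this limit. The sources used here give no read total for a library, so precision is read from the SE.

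Computed here, with Python 3.11.15, pandas, numpy and scipy, were counts per side, 95% intervals (normal), and differences between cell types. Whether shrunken values in rows with few reads altered these differences was not tested. Named were all members past an adjusted p of 0.05, the 5 with the highest base means per table and a fixed list of 10 names. The members, groups and rules were chosen with earlier results of these data known. Alternatives were other thresholds, a base mean minimum of 50, adjustment over every row with a p, centring, a stricter class, and a turned sign. Base means were not tested between tables, which were normalised separately. Sequences of the subfamilies were not used here.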

Additional observations from a re-analysis of the deposited data

Results flagged for a closer look

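The subfamilies listed here had log2 fold changes that differed between 2 cell types by the test of the difference itself. Each value is the log2 fold change of the first cell type minus that of the second, with the tables taken as oriented alike. For ESCs minus macrophages, the differences above 0 were MER54A 1.75, LTR16D 1.53, LTR108a_Mam 1.28, RLTR35B_MM 1.09, LTR84a 1.08, HERV16-int 0.96, MLT2C2 0.88, LTR41 0.83 and MER77 0.43. Below 0 for that pair were LTR41B -1.64, LTR101_Mam -1.46, MER70A -1.32, MER74B -1.23, MER68-int -1.18, LTR82A -1.18, LTR55 -1.17, LTR16E2 -1.14, MER77B -0.67, RLTR28 -0.66, MER76 -0.62 and MLT2B4 -0.46. Their adjusted p by this test lay between 1.52e-10 and 0.041. For ESCs minus NPCs, the differences above 0 were HERV16-int 2.39, MER54A 1.28, LTR16A1 1.21, LTR40b 1.09, ERVL-int 0.99, MER68B 0.86, MLT2C2 0.82 and ERVL-B4-int 0.72. Below 0 for that pair were LTR41B -1.63, LTR89B -1.37 and LTR33A -0.81. Their adjusted p by this test lay between 4.96e-11 and 0.0396. For macrophages minus NPCs, the differences above 0 were LTR53B 2.84, LTR101_Mam 1.70, LTR55 1.58, HERV16-int 1.43, MER74B 1.37, MER68-int 1.32, MER68B 1.03, ERV3-16A3_I-int 0.98, ERVL-B4-int 0.85, MER77B 0.69 and RLTR28B 0.65. Below 0 for that pair were LTR89B -1.55, LTR40A1 -1.33, RLTR35B_MM -1.24, LTR33A -1.03 and MER74A -0.69. Their adjusted p by this test lay between 6.89e-07 and 0.0413. In 10 of the 21 members for ESCs and macrophages, 4 of the 11 for ESCs and NPCs, and 7 of the 16 for macrophages and NPCs, the difference also passed with the sign of 1 table turned. Several rest on rows with few reads in 1 table: LTR89B had a base mean of 1.90 in macrophages, LTR53B of 3.54 in NPCs, LTR101_Mam of 6.34 in NPCs and LTR16D of 11.9 in macrophages. The part of low reads in these differences was not tested. In each pair 1 member differed while passing in neither of its tables. These were HERV16-int for ESCs and macrophages, MER68B for ESCs and NPCs, and RLTR28B for macrophages and NPCs. RLTR28B lay at 0.19 ± 0.12 in macrophages and -0.46 ± 0.20 in NPCs in the authors' deposited tables.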

How the results depend on the processing

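No paired analysis was possible because the tables hold no values per library, and for the same reason leaving out replicates was not run. An adjusted p under 0.1 gave 11 positive members in ESCs in place of 6, and one under 0.01 gave 5 negative in macrophages in place of 9. A log2 fold change of at least 1 left 2 positive and 0 negative in ESCs (also 0 negative at an unadjusted DESeq2 p under 0.05), 6 and 2 in macrophages, and 3 and 3 in NPCs. With rows of base mean 50 or more, NPCs had 3 positive members in place of 5. All other counts per side stayed within 1.5 times under these settings, adjustment over every row, centring and the stricter class. Members that differ between ESCs and macrophages numbered 12 in place of 21 with base means of at least 50 in both tables, and those between macrophages and NPCs 10 in place of 16. Only 60 members in ESCs, 52 in macrophages and 53 in NPCs had such base means, beside the 98 and 102 compared in the main test. At an adjusted p of 0.01 the members that differ numbered 6 in place of 11 for ESCs and NPCs, and 9 in place of 16 for macrophages and NPCs. The counts in this paragraph stand without the share of all rows under the same setting. They do not show whether members lost more than other rows. The cause of the lower counts was not tested beyond the smaller number of rows or the stricter rule that each setting makes. The members' medians moved by less than their median SE. Of single named values, 3 came under 0.05 in a setting: HERV16-int in ESCs (0.0468) and MER54A in macrophages (0.0416) with the base mean minimum, and LTR84a in NPCs (0.0497) with centring. LTR16 in macrophages rose to 0.0517 with centring. No value changed sign among those that passed. Most members had few reads, and what part this had in the calls was not tested. Among members with base means of at least 50, the median SE was 0.22 in NPCs, against 0.15 in macrophages.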

Other observations

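Some members that passed in 1 table had sizeable values in another without passing there; they were picked out after their values were seen. In the authors' deposited tables LTR84a lay at -0.33 ± 0.23 in ESCs, at -1.41 ± 0.20 in macrophages and, where its adjusted p was 0.0501, at -0.84 ± 0.31 in NPCs. LTR86A1 lay at 0.92 ± 0.29 in ESCs and at 0.89 ± 0.36 in NPCs, where its adjusted p was 0.0997, and at 0.00 ± 0.37 in macrophages, where its base mean was 7.58. MER70A, positive in macrophages at 1.38 ± 0.28, lay at 0.63 ± 0.27 in NPCs and 0.06 ± 0.19 in ESCs. LTR16A1, positive in ESCs at 0.64 ± 0.20, lay at 0.01 ± 0.18 in macrophages and at -0.57 ± 0.22 in NPCs, where its adjusted p was 0.081. Of the 98 members tested in every table, 33 had the same sign in all 3. This count takes the tables as oriented alike, and no share of all rows is set beside it.

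The least read members could hardly be measured. LTR108c_Mam had a base mean of 0 in ESCs and NPCs and of 1.44 in macrophages, and MER76-int one of 0.34 in ESCs and 0 in both other tables. LTR52-int had base means of 1.42, 1.07 and 0.71 in ESCs, macrophages and NPCs. The LTRs of these stems were read more: MER76 had base means of 121, 78.1 and 48.2, and LTR52 of 20.7, 7.87 and 22.5 in the authors' deposited tables.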
